A study of Arabidopsis thaliana with 6 samples.

Results

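The genes described here were weakly expressed in far-red-treated fhy1-1 seedlings and at least 3-fold higher when the mutant carried GFP-FHY1. They were chosen by their values in the authors' deposited table: tested by the authors, on chromosomes 1 to 5, at 1 to under 10 FPKM in fhy1-1, and with a GFP-FHY1 value at least 3 times the fhy1-1 value. FPKM stands for fragments counted per kilobase of transcript and relative to all mapped fragments, so levels of genes of different length can be compared. Of 33557 genes listed and 23937 tested, 9034 lay in that range of fhy1-1 values and 80 met the fold. The antenna gene AT2G34430, which also met these values, was left out of the set. Because these values chose the genes, their fold changes are given as a description and carry no test here.

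Both genotypes carry the fhy1-1 mutation, and the second also carries GFP-FHY1 driven by the 35S promoter, which is active in most tissues. The seedlings were 4 days old and had the light code D4d+FR3h, in which 3 h of far-red light is named. Each genotype had 3 libraries, which the authors' table combines into 1 value per gene, so no SD can be given and the depth of each library is unknown. Neither a wild type nor seedlings kept from far-red light enter the comparison, so a return of FHY1 function and an excess of FHY1 cannot be told apart. FHY1 itself stood at 19.0 FPKM in the mutant and at 195.9 FPKM with GFP-FHY1, a value that cannot separate the transgene from the mutant transcript. Markers of green cotyledon tissue, epidermis, phloem, guard cell, shoot tip and root were present in both genotypes. The floral marker AG was at 0.0183 FPKM in each. Of the green tissue markers, LHCB1.3 was at 483.1 FPKM in fhy1-1 and 1199 FPKM with GFP-FHY1, and RBCS1A at 3083 and 3666 FPKM. In whole seedlings, fewer cells of a type and less RNA per cell cannot be told apart.

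In far-red light, phytochrome A is the main photoreceptor of a seedling, and FHY1 carries it from the cytoplasm into the nucleus. There the photoreceptor changes transcription, partly through HY5 and the COP1 and SPA proteins, and the seedling begins to open its cotyledons and to prepare its plastids for photosynthesis. Sigma factors, GATA factors and B-box proteins are among the regulators known to take part in that change.

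The 80 genes ran from 1.03 to 9.90 FPKM in fhy1-1 with a median of 2.81 FPKM. In the GFP-FHY1 line they ran from 3.66 to 43.8 FPKM with a median of 13.2 FPKM. The median fold was 3.97 (log2 fold change 1.99), with 37 genes at least 4-fold higher, 24 at least 5-fold and 4 at least 10-fold. By construction the median of the other 8953 genes of the same range was lower, with a log2 fold change of -0.03. By their level, 49 genes reached 10 FPKM with GFP-FHY1, 25 reached 20 FPKM and 11 reached 30 FPKM. Summed over the set, the level was 292.1 FPKM in fhy1-1 against 1296 FPKM with GFP-FHY1.

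The authors' deposited table called 74 of the 80 genes higher at a q below 0.05 (92.5%), and listed q as 0 for 59 of them. Over all tested genes the same table called 9.92% higher and 12.9% lower, and it called 9% of the genes in the same range of fhy1-1 values higher. Since the fold chose the genes, nothing is read from that difference. In the same range 0.897% of genes were at least 3-fold higher. Another 70 genes of that range were at least 3-fold lower, of which the authors' deposited table called 12 lower, and 40 of these 70 were listed at 0 in the GFP-FHY1 line.

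**Figure D1:**
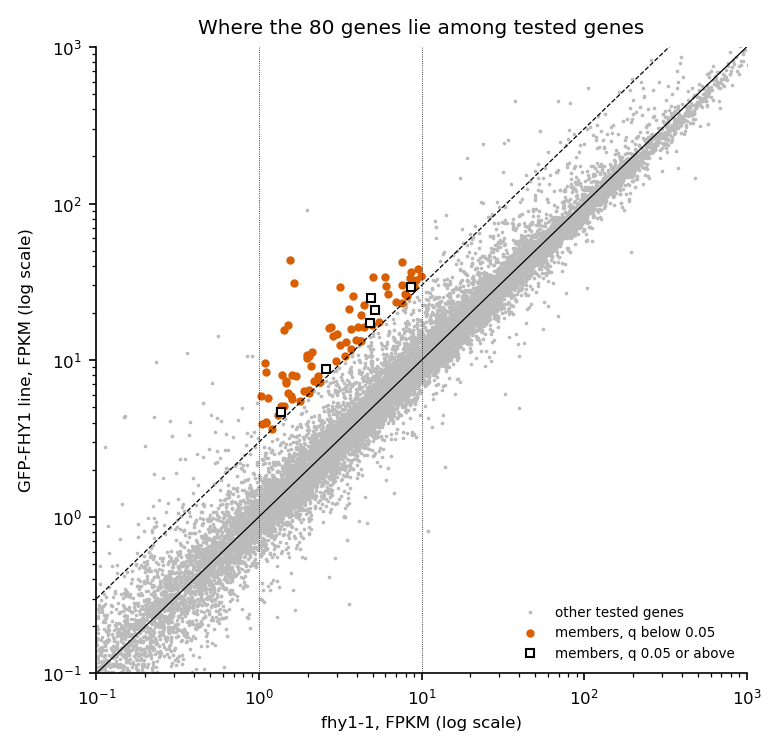
FPKM in fhy1-1 (x axis, log scale) against FPKM in the GFP-FHY1 line (y axis, log scale) for the tested genes, 1 point per gene, with genes at 0 or beyond the axes not drawn. Orange points and open squares are the 80 genes, with a q below 0.05 and at 0.05 or above; the solid line marks equal values, the dashed line 3-fold, and the dotted lines 1 and 10 FPKM.

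Inside the fold limit the nearest genes were ASG4 at 3.03-fold, SNZ at 3.03-fold and AT1G73650 at 3.03-fold. Just outside it lay GA2OX2, a gibberellin-inactivating enzyme, at 2.99-fold, DIN9 at 2.98-fold and AT5G16030 at 2.97-fold. In all, 28 genes of the set had folds of 3 to under 3.5, and 52 genes of the same range had folds of 2.5 to under 3. At the upper limit CRY3 (9.54 FPKM in fhy1-1) fell inside, whereas the plastocyanin gene PETE1, which rose from 10.3 to 34.6 FPKM, fell outside. At the lower limit SDR1 (1.03 FPKM) fell inside and AT4G15810 (0.992 FPKM) outside.

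Sorted by their annotation, the 80 genes fell into 14 regulators of light responses and transcription, 11 genes of chloroplast function, 19 other metabolic enzymes, 14 genes of the cell surface, lipid transfer and transport, 7 of signalling, protein turnover and nucleic acid binding, 4 microRNA loci and 11 of unknown role. Well-known plastid proteins came from 12 of them. Calls given below for role groups, families and lists stand beside 9.92% higher and 12.9% lower over all tested genes. Every gene of a role group was chosen by its fold, so nothing is read from the calls within it. The share with no described role by keyword was 11.25%, beside 11.4% of the other genes of the range. This keyword class is not the group of 11: it holds PMI2 and AT1G73650 and leaves out AT5G27345 and AT1G22630. Lipid transfer or lipid metabolism words were found for 5% of the set and 0.927% of the others. Kinases and phosphatases made up 1.25% of the set and 6.95% of the others. Transcription words were found for 6.25% of the set (5 genes) and 6.51% of the others. These words missed regulators such as STH, TIFY7 and CGA1, so the share is not that of the 14 regulators.

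**Figure D2:**
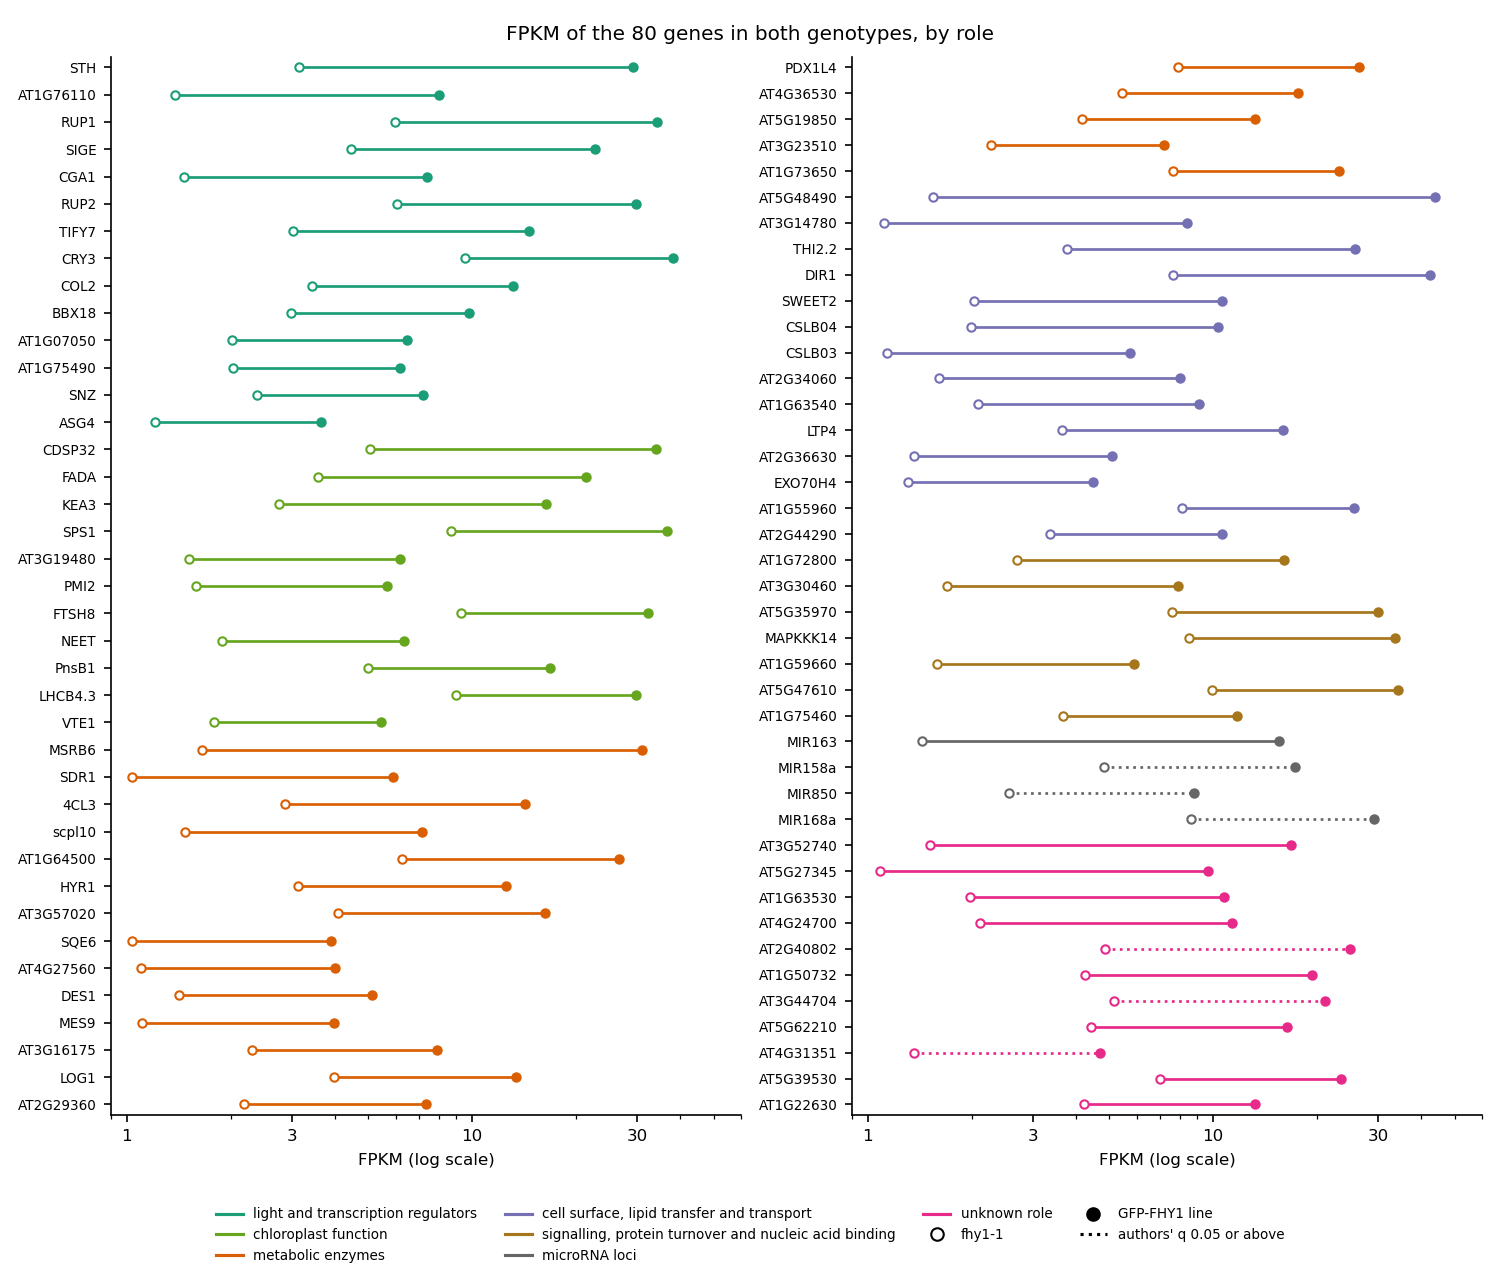
FPKM (log scale) of each of the 80 genes in fhy1-1 (open points) and in the GFP-FHY1 line (filled points), coloured by role group and ordered by fold within it. Dotted lines mark the 6 genes with a q of 0.05 or above; STH is also known as BBX25, SIGE as SIG5, FADA as FAD4 and TIFY7 as JAZ9.

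The regulators of light responses included repressors as well as activators, and the authors' deposited table called all 14 higher. STH (BBX25, AT2G31380), a B-box protein that holds back HY5-dependent seedling de-etiolation, stood at 3.145 FPKM in fhy1-1 and 29.2 FPKM with GFP-FHY1, 9.29-fold higher. Its locus overlaps AT2G31390 on the other strand, which was at 198.2 and 165.0 FPKM. Reads from a stretch covered by both genes cannot be told apart without strand. BBX18, another B-box protein with a repressing role in seedling light responses, was at 2.99 and 9.82 FPKM. COL2, a close relative of the flowering regulator CONSTANS, was at 3.44 and 13.1 FPKM. The B-box family, these 3 genes included, had 28 tested genes, of which the authors' deposited table called 15 higher and 4 lower; their median log2 fold change was 0.31 beside -0.05 for all tested genes. BBX24, the nearest relative of STH, was far more abundant at 146.0 and 250.9 FPKM, and BBX23 was lower, at 59.9 and 22.1 FPKM.

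RUP1 and RUP2, a pair of WD40 proteins that switch off the UV-B receptor UVR8, had nearly the same values. RUP1 was at 5.97 FPKM in fhy1-1 and 34.2 FPKM with GFP-FHY1 (5.73-fold). RUP2 was at 6.05 and 29.8 FPKM (4.92-fold). Both genes lie on chromosome 5, at 21216855 to 21218226 and 8005234 to 8006630 on the plus strand (TAIR10), each with 1 exon. A list of 22 tested genes of phytochrome A signalling holds the pair and also FHY1 itself, the gene of the transgene. In it the authors' deposited table called 14 higher and 1 lower, beside 9.92% and 12.9% of all tested genes. The median log2 fold change was 0.48, and nothing is read from the count. SPA3 and SPA4, partners of the COP1 ubiquitin ligase, lay just under the fold limit at 2.83-fold and 2.85-fold.

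CRY3 (AT5G24850), a cryptochrome of chloroplasts and mitochondria that repairs damage in single-stranded DNA, was the most abundant regulator of the set, at 9.54 FPKM in fhy1-1 and 38.0 FPKM with GFP-FHY1. The photoreceptors CRY1 and CRY2 differed less, at 22.7 and 27.0 FPKM for CRY1 and 54.1 and 59.2 FPKM for CRY2. SIGE (SIG5, AT5G24120), a nuclear-encoded sigma factor that directs plastid RNA polymerase to light-responsive promoters, was at 4.45 and 22.7 FPKM. It had a fold of 5.10, the largest of the 6 plastid sigma factors, all called higher by the authors' deposited table, the others at 1.22-fold to 2.51-fold. CGA1, a GATA factor that promotes chloroplast development, was at 1.46 and 7.41 FPKM (5.07-fold), whereas its relative GNC was more abundant and moved less, from 13.7 to 21.1 FPKM.

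The other transcription genes of the set include regulators of jasmonate responses and flowering, and genes that RefSeq describes by family alone. TIFY7 (JAZ9, AT1G70700), a repressor of jasmonate responses, was at 3.03 and 14.6 FPKM (4.83-fold). None of the other 11 genes of that family, all of them tested, was called in either direction in the authors' deposited table. SNZ, an AP2-type repressor of flowering, was at 2.38 and 7.22 FPKM, and its close relative SMZ was at 12.1 and 32.1 FPKM (2.66-fold). ASG4, which RefSeq describes as a homeodomain-like protein, had the lowest GFP-FHY1 value of the set, at 1.21 and 3.66 FPKM. AT1G76110, annotated with an HMG box and an ARID DNA-binding domain, was at 1.38 and 7.99 FPKM (5.80-fold). The CCT motif gene AT1G07050 was at 2.02 and 6.47 FPKM, and the AP2-like gene AT1G75490 at 2.04 and 6.19 FPKM.

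Beside 9.92% of all tested genes, the authors' deposited table also called higher all 11 genes of chloroplast function, at a median fold of 3.55. Their products serve lipid and quinone synthesis, ion transport, repair and light capture. CDSP32, a thioredoxin-like protein that protects the stroma from oxidation, was at 5.05 FPKM in fhy1-1 and 34.1 FPKM with GFP-FHY1 (6.76-fold). FADA (FAD4), the desaturase that makes the trans fatty acid of thylakoid phosphatidylglycerol, was at 3.58 and 21.3 FPKM (5.95-fold). KEA3, a thylakoid potassium and proton exchanger that speeds recovery from photoprotection, was at 2.76 and 16.4 FPKM (5.94-fold). Of the other 5 potassium efflux antiporters, only KEA1 was called higher in the authors' deposited table (8.14 and 12.5 FPKM), and KEA4 was called lower (11.3 and 9.66 FPKM).

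In all, 11 of the 80 genes share a locus with another gene in the table, STH and FADA among them. FADA overlaps VPS22, which was at 31.6 FPKM in both genotypes, and AT3G19480 overlaps NHD1, which was at 23.9 and 19.9 FPKM. For SDR1, HYR1 and PnsB1 the overlapping gene was under 1 FPKM in both genotypes.

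SPS1, which makes the side chain of plastoquinone, rose from 8.65 to 36.7 FPKM (4.23-fold), and SPS2, of the same activity, from 11.6 to 28.5 FPKM (2.46-fold). FTSH8, a subunit of the thylakoid protease that removes damaged photosystem proteins, was at 9.29 and 32.3 FPKM (3.48-fold). The other thylakoid subunits of that protease had higher levels and smaller folds: FTSH1 was at 20.5 and 44.8 FPKM, VAR1 at 52.2 and 121.7 FPKM, and VAR2 at 71.4 and 121.6 FPKM. PnsB1, a subunit of the NDH complex of cyclic electron flow, was at 4.99 and 16.8 FPKM. The authors' deposited table called the other 4 subunits of its subcomplex higher as well, at 1.3-fold to 2.06-fold.

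LHCB4.3, a minor antenna protein of photosystem II, was at 8.99 and 29.8 FPKM (3.31-fold). Its sister genes were far more abundant: LHCB4.1 was at 138.0 and 279.3 FPKM and LHCB4.2 at 57.7 and 167.7 FPKM. The authors' deposited table called 25 of 27 tested antenna genes higher, at a median log2 fold change of 1.59, so the value of LHCB4.3 (1.73) was near the middle of its family. VTE1, the tocopherol cyclase of vitamin E synthesis, was at 1.79 and 5.45 FPKM, while G-TMT, which acts after it, was at 17.4 FPKM in both genotypes. Of the other tocopherol genes VTE5 was at 6.06 and 9.57 FPKM and APG1 at 101.2 and 109.4 FPKM, both called higher in the authors' deposited table, and HPT1 was at 3.604 and 4.39 FPKM and not called. The last genes of this group were AT3G19480, a phosphoglycerate dehydrogenase of serine synthesis (1.52 and 6.18 FPKM), NEET, an iron-sulphur protein (1.89 and 6.35 FPKM), and PMI2, which is needed for chloroplast movement (1.59 and 5.65 FPKM).

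**Figure D3:**
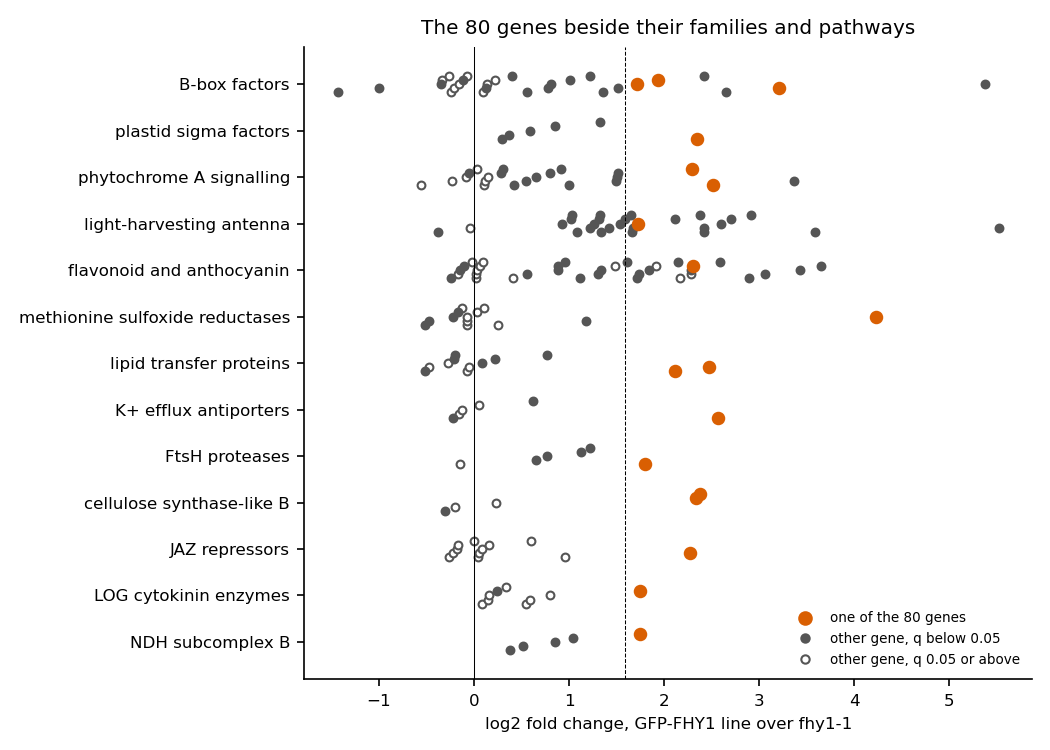
Log2 fold change of the GFP-FHY1 line over fhy1-1 (x axis) for tested genes of 13 families and pathways, 1 point per gene. Orange points are genes of the set, grey points other genes with a q below 0.05, and open points other genes with a q of 0.05 or above; the dashed line marks 3-fold, and MSRB6 stands alone at 4.23 in its family.

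Among the metabolic enzymes, MSRB6 (AT4G04840, chromosome 4, 2449560 to 2451589, plus strand) had the largest fold of the group. This methionine sulfoxide reductase, one of the enzymes that repair oxidised methionine, was at 1.65 FPKM in fhy1-1 and 31.0 FPKM with GFP-FHY1 (18.8-fold). In its family of 13 tested genes the authors' deposited table called 2 higher and 4 lower, and their median log2 fold change was -0.08. The other gene called higher was MSRB1, at 33.5 and 75.7 FPKM. MSRB5, the next gene upstream on chromosome 4, was called lower, at 68.1 and 48.9 FPKM.

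4CL3, the 4-coumarate:CoA ligase that feeds flavonoid synthesis, was at 2.87 and 14.2 FPKM (4.95-fold). The related ligases 4CL1 and 4CL2, which serve lignin synthesis, were more abundant and not higher, at 142.5 and 120.3 FPKM for 4CL1 and 42.2 and 38.3 FPKM for 4CL2. Across 35 tested genes of flavonoid and anthocyanin synthesis the authors' deposited table called 19 higher and 3 lower, and the median log2 fold change was 1.32. SQE6, an enzyme annotated as squalene monooxygenase, was at 1.04 and 3.9 FPKM, and SQP1, a related gene close by on chromosome 5, was at 0.537 and 2.2 FPKM. The more abundant enzymes of that step differed from each other, with XF1 at 28.0 and 28.9 FPKM and SQE3 at 26.5 and 62.3 FPKM (2.35-fold). LOG1, which activates cytokinin, was at 3.98 and 13.4 FPKM (3.37-fold), and DES1, which releases hydrogen sulphide from cysteine, was at 1.42 and 5.13 FPKM.

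The remaining enzymes of the group were mostly known by family alone. SDR1, a short-chain dehydrogenase, was at 1.03 and 5.91 FPKM (5.72-fold). The carboxypeptidase-like gene scpl10 was at 1.47 and 7.15 FPKM, and the glutaredoxin gene AT1G64500 at 6.26 and 26.7 FPKM. PDX1L4, a short relative of the vitamin B6 enzyme PDX1 with 79 codons, was at 7.89 and 26.5 FPKM. HYR1 and AT4G27560, both UDP-glycosyltransferases by annotation, were at 3.139 and 12.5 FPKM and at 1.1 and 4.00 FPKM. MES9, a methyl esterase, was at 1.11 and 3.99 FPKM. The authors' deposited table called all 19 enzymes of the group higher, at folds of 3.03 to 18.8.

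Genes of the cell surface, lipid transfer and transport had the highest median fold of the protein-coding groups, 5.02, and the authors' deposited table called all 14 higher. AT5G48490 (chromosome 5, 19647835 to 19648281, minus strand), a protein of 101 codons from the lipid-transfer superfamily, had both the largest fold and the highest GFP-FHY1 value of the set. It was at 1.54 FPKM in fhy1-1 and 43.8 FPKM with GFP-FHY1, 28.4-fold higher, with a log2 fold change of 4.83 and an error of 0.44 implied by the authors' test. DIR1, the adjacent gene on the same strand and a lipid-transfer protein of systemic acquired resistance with 102 codons, was at 7.63 and 42.4 FPKM (5.56-fold). The genes on either side of this pair did not move with it: AT5G48480 was at 18.3 and 15.3 FPKM and AT5G48500 at 13.0 and 13.5 FPKM.

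LTP4, a small lipid transfer protein, was at 3.66 and 15.9 FPKM (4.35-fold), and LTP3, the adjacent copy of this gene, at 59.8 and 102.2 FPKM. Reads can be shared between such near copies. In a list of 12 tested lipid transfer proteins the authors' deposited table called 5 higher and 3 lower, and the median log2 fold change was -0.06. THI2.2, a small antimicrobial thionin, was at 3.78 and 25.7 FPKM (6.80-fold), while THI2.1 was listed at 0 in both genotypes. AT3G14780, annotated as callose synthase, was at 1.11 and 8.40 FPKM (7.56-fold). EXO70H4, an exocyst subunit of trichome wall formation, was at 1.31 and 4.49 FPKM.

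CSLB03 and CSLB04, adjacent cellulose synthase-like genes with 755 codons each, had similar values. CSLB03 was at 1.13 and 5.73 FPKM (5.05-fold), and CSLB04 was at 1.98 and 10.3 FPKM (5.2-fold). The next gene on the far side, AT2G32550, was at 0.618 and 2.65 FPKM. Of the remaining tested genes of that family, CSLB01 at 1.72 and 2.01 FPKM and CSLB02 at 1.75 and 1.52 FPKM were not called, and ATCSLB05 was called lower in the authors' deposited table at 6.81 and 5.5 FPKM. SWEET2, a sugar transporter of the vacuole membrane, was at 2.02 and 10.6 FPKM (5.23-fold).

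The chromosomal order shows 4 pairs of set genes with no gene between them, each pair on 1 strand. CSLB03 and CSLB04 were 1115 bases apart, MSRB6 and KEA3 were 1074 bases apart, DIR1 and AT5G48490 were 1032 bases apart, and SWEET2 and AT3G14780 were 2101 bases apart. The gene beyond AT3G14780, RHM3, which makes the cell wall sugar rhamnose, was itself at 21.3 and 72.0 FPKM and so above the fold limit but outside the range of fhy1-1 values. A further pair, AT1G63530 and AT1G63540, had between them 1 gene listed at 0 in both genotypes, and CDSP32 and AT1G76110 were separated by 2 genes that include PETE1. Whether reads ran on from a gene into its neighbour was not tested. By chromosome the set held 22, 15, 14, 12 and 17 genes on chromosomes 1 to 5.

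The authors' deposited table called all 7 genes of signalling, protein turnover and nucleic acid binding higher, at a median fold of 3.93. MAPKKK14, the only kinase of the set with a symbol and the first tier of a MAP kinase cascade, was at 8.54 and 33.5 FPKM. AT1G72800, an RNA-binding protein of the RRM family, was at 2.71 and 16.0 FPKM (5.90-fold). AT5G47610, a RING/U-box superfamily protein by annotation, had the highest fhy1-1 value of the set at 9.90 FPKM and stood at 34.3 FPKM with GFP-FHY1. A second RING gene, AT3G30460, was at 1.7 and 7.91 FPKM, and AT5G35970, a nucleoside triphosphatase, at 7.59 and 30.04 FPKM.

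MIR163 was the only one of 4 microRNA loci that the authors' deposited table called higher. MicroRNAs are cut from a hairpin transcript, and bases 2 to 8 of the mature strand are called the seed. Targets are not read from the seed here. The FPKM values are of the locus and not of the mature strand. MIR163 (AT1G66725, chromosome 1, 24883931 to 24884559, plus strand), whose product is known to act on methyltransferase transcripts and lies at 24884359 to 24884382, was at 1.44 FPKM in fhy1-1 and 15.5 FPKM with GFP-FHY1 (10.8-fold). The other loci were not called: MIR168a, which controls the ARGONAUTE protein of the microRNA pathway, was at 8.65 and 29.3 FPKM, MIR158a at 4.84 and 17.2 FPKM, and MIR850 at 2.57 and 8.82 FPKM. Their locus lengths in the table were 104 bp for MIR168a and 100 bp for MIR158a, against 629 bp for MIR163, whereas MIR850 shares a merged locus of 3933 bp with MIR863 and AT4G13495. The mature strands, read from the RefSeq annotation of TAIR10.1 on chromosomes 1, 4, 3 and 4, are shown so that the seeds can be compared, with the seed in capitals:
ath-miR163: uUGAAGAGgacuuggaacuucgau
ath-miR168a-5p: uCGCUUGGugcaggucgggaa
ath-miR158a-3p: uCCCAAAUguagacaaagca
ath-miR850: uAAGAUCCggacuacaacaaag
No seed was shared between any of these 4 strands.

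Unknown role means here that the RefSeq annotation gives none, which does not exclude a role described elsewhere. These 11 genes included some of the largest folds, and the authors' deposited table called 8 of them higher. AT3G52740 (chromosome 3, 19546374 to 19546964, minus strand), which RefSeq lists without a described role, with 140 codons in 1 exon, was at 1.51 FPKM in fhy1-1 and 16.8 FPKM with GFP-FHY1, 11.1-fold higher and the third largest fold of the set. The gene before it, AT3G52730, was at 376.7 and 306.9 FPKM. AT5G27345 (chromosome 5, 9641505 to 9643917, minus strand), listed in RefSeq as a pseudogene, was at 1.09 and 9.64 FPKM (8.86-fold). AT1G63530, a protein of 522 codons, was at 1.97 and 10.7 FPKM (5.45-fold), and its near neighbour AT1G63540, annotated as a hydroxyproline-rich glycoprotein of 635 codons, was at 2.08 and 9.12 FPKM (4.38-fold). AT4G24700, of 143 codons, was at 2.11 and 11.3 FPKM (5.35-fold).

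Folds were smaller among the other genes of this group. AT1G50732, of 118 codons, was at 4.26 and 19.4 FPKM (4.55-fold). AT5G62210, annotated as embryo-specific protein 3, was at 4.41 and 16.4 FPKM. AT5G39530, which holds a domain of unknown function, was at 7.02 and 23.4 FPKM (3.34-fold). AT1G22630, an SSUH2-like protein of 110 codons, was at 4.22 and 13.2 FPKM. The last 3 genes, AT2G40802, AT3G44704 and AT4G31351, were not called, and 2 of these encode at most 65 codons: AT3G44704 has 51 and AT4G31351 has 65. AT2G40802 was at 4.86 and 24.9 FPKM but its locus spans 102 bp, and the authors' deposited table gives it a q of 0.65.

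All 5 set genes with a locus shorter than 200 bp were among the 6 that were not called, and the sixth was MIR850 in its shared locus. For each gene the error of its log2 fold change can be read from the fold and the authors' test score. That error ran from 1.06 to 2.97 for the 6 uncalled genes, and was at most 0.44 for the 74 called genes, with a median of 0.18. In the rest of the range 0.983% of loci were shorter than 200 bp. Among the 70 genes at least 3-fold lower, 38 loci were shorter than that, with a median locus length of 148.5 bp beside 1902 bp for the 80 genes. Any part of locus length in these folds was not tested, and the fold changes of the 6 uncalled genes are given as values only.

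**Figure D4:**
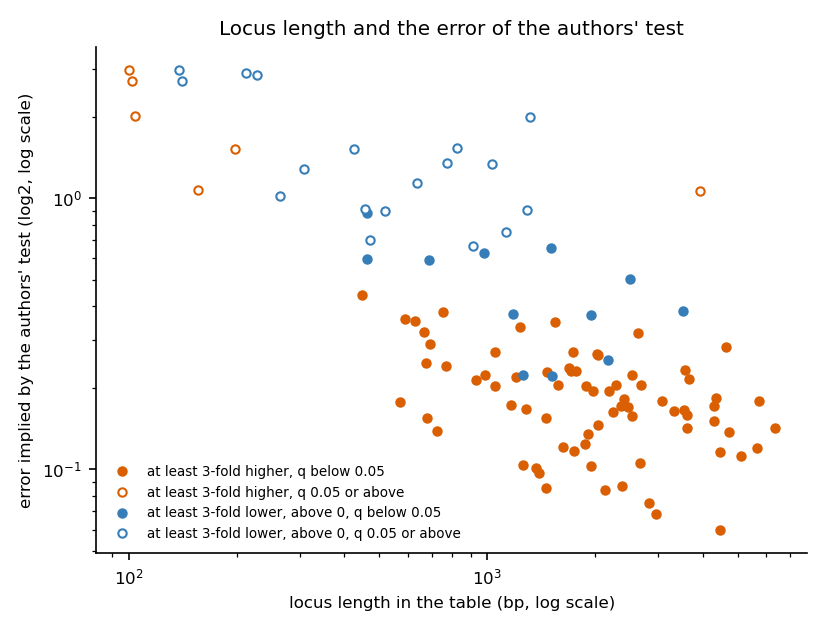
Locus length in the table (x axis, bp, log scale) against the error of the log2 fold change implied by the authors' test (y axis, log scale), 1 point per gene. Orange points are the 80 genes and blue points the genes of the same range at least 3-fold lower with a GFP-FHY1 value above 0, filled with a q below 0.05; all 74 filled orange points lie at or under 0.44.

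The 74 protein-coding genes had a median of 331 codons, beside 413 for the other genes of the range. A single exon was annotated for 27.0% of them (20 genes), beside 16.6% of the others. These shares describe the set, and no test of the differences was made.

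Other pathways of seedling greening and growth are given for comparison, with the number of their genes that lay in the range of fhy1-1 values. Beside them, 9.92% of all tested genes were called higher and 12.9% lower, and no list was tested against these shares. The authors' deposited table called all 30 tested photosystem and Rubisco subunits higher, at a median log2 fold change of 1.06, and 0 of them lay in the range of fhy1-1 values. Of carotenoid synthesis the authors' deposited table called 12 of 16 tested genes higher and 0 lower (median 0.43), with 5 in the range, and of chlorophyll and haem synthesis 14 of 24 higher and 3 lower (median 0.24), with 2 in the range. Of the circadian clock genes the same authors' deposited table called 14 of 24 higher and 1 lower (median 0.43), with 6 in the range; 24 of 27 listed clock symbols were matched to a gene. Sugar and nitrogen transporters, with SWEET2 in the set, had 10 of 38 higher and 8 lower by the calls of the authors' deposited table. By the same calls, gibberellin enzymes and GASA peptides had 4 of 20 higher and 6 lower, and Aux/IAA repressors and GH3 enzymes 5 of 38 higher and 9 lower. For the lists that hold set genes, the shares of their genes in the range that the set took were as follows. These were 3 of 11 B-box genes, 1 of 3 antenna genes, 1 of 4 sigma factors and 2 of 9 phytochrome A signalling genes. They were also 2 of 3 lipid transfer proteins, 1 of 3 methionine sulfoxide reductases and 1 of 5 flavonoid and anthocyanin genes. For sugar and nitrogen transporters the share was 1 of 11. All stand beside the 0.897% over the whole range. The lists and the set were chosen with these values known, so nothing is read from those shares.

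Promoters were compared as a description of what the fold rule did not use. The window ran from 250 bases before to 50 bases after the annotated start, for 79 set genes with a RefSeq start, and both strands were searched. The G-box CACGTG, a site of HY5 and of the PIF proteins, was found in 12 set promoters (15.2%), beside 8.30% of the other genes of the range and 6.46% of all nuclear genes. Its inner core ACGTG, which lies inside every G-box and is counted there too, was found in 35 (44.3%), beside 26.9% and 24.6%. The I-box GATAAG, known from promoters of photosynthesis genes, was found in 19.0%, beside 13.9% and 15.1%, and the SORLIP1 letters GCCAC, known from phytochrome A-induced promoters, in 25.3%, beside 19.7% and 18.9%. The evening element core AATATCT of clock-regulated genes was found in 8.86%, beside 11.1% and 10.8%. The FHY3 and FAR1 site CACGCGC was found in 0 set promoters, beside 1.33% and 1.17%. In the 74 called genes alone, the shares were 13.5% (G-box), 41.9% (ACGTG), 18.9% (I-box), 27.0% (GCCAC) and 9.46% (evening element core).

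Genes with a G-box included ASG4, AT1G59660, AT1G75460, AT1G75490, SPS1, scpl10, AT2G36630, EXO70H4, AT3G44704, MIR168a and AT4G27560. The core ACGTG was matched 5 times at ASG4, counting both strands. Each of the 2 G-boxes there reads the same on both strands, so the core inside it was matched on each strand. AT5G48490, with the largest fold, held 1 GCCAC and none of the other letters searched. Matching letters are a description and not a bound site, and a window without them says nothing of the factor.

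**Figure D5:**
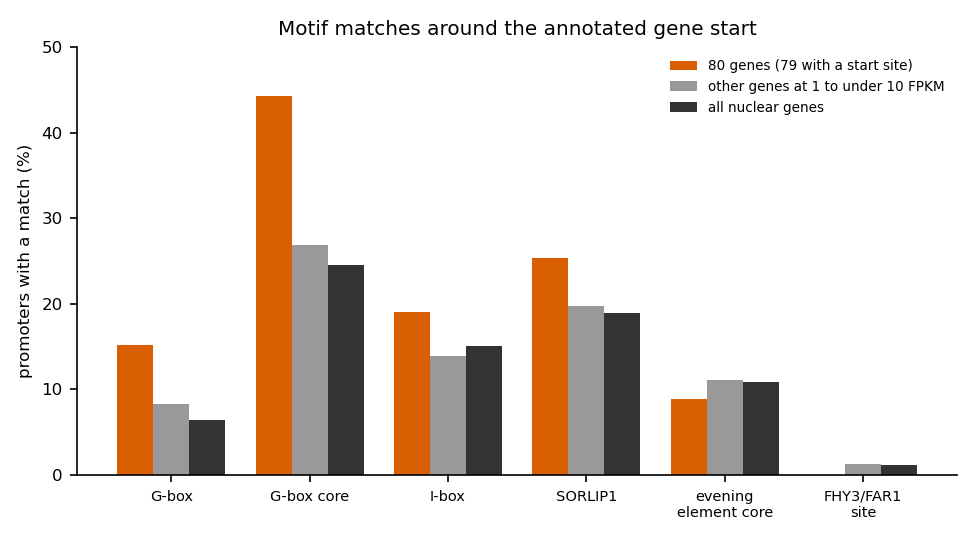
Share of promoters (y axis, percent) with at least 1 match on either strand from 250 bases before to 50 bases after the annotated start, for 79 set genes (orange), the other genes at 1 to under 10 FPKM (grey) and all nuclear genes (black). The tallest orange bar is the G-box core ACGTG at 44.3%, beside 26.9% and 24.6%.

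The 250 bases before the start are shown for 4 genes, from RefSeq TAIR10.1 and written 5′ to 3′ on the gene's strand. Capitals mark the G-box, its inner core, the I-box and the evening element core on either strand. EXO70H4 (chr3:2923268-2923517, plus strand) is shown for a G-box that begins 22 bases before the start, SPS1 (chr1:29537483-29537732, minus strand) for a G-box at 50 bases with an I-box at 21, ASG4 (chr1:190158-190407, plus strand) for a G-box at 84 bases and a further core at 48, and AT5G48490 (chr5:19648363-19648612, minus strand) as the gene with the largest fold and no capital letters:
EXO70H4: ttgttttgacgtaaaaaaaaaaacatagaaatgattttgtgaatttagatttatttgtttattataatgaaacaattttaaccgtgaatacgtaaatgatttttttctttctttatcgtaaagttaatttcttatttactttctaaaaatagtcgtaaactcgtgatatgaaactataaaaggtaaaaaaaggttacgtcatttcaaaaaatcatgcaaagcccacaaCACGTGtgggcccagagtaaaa
SPS1: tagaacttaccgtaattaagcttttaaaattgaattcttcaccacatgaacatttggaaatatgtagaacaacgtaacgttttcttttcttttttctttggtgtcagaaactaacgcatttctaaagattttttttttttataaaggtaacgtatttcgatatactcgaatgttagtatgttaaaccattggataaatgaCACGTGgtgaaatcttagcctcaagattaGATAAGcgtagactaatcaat
ASG4: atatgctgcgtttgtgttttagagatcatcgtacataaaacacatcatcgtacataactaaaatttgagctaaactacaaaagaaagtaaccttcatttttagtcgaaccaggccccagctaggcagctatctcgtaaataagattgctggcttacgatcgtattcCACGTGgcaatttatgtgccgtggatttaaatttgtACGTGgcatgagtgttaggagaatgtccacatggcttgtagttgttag
AT5G48490: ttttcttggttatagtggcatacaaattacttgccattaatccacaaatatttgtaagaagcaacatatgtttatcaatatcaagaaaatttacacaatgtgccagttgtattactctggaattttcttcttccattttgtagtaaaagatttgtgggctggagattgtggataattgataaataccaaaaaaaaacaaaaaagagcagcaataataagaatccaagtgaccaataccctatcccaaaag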

How the data were processed

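Per the labels, total RNA of whole seedlings was sequenced with the standard Illumina mRNA protocol, and Bowtie and TAIR10 are named in the submitters' processing notes. Per the file headers the authors' table is a gene-level comparison with 1 value per genotype, read here as FPKM from its layout because the headers name no unit. The deposited q-value gives the calls (below 0.05), and the deposited p-value and test score were used for the implied error, the log2 fold change divided by the score. The sources used here do not give versions, strand handling or replicate spread. No test of FPKM values was made.

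The 80 genes, the gene lists and the role groups were chosen with earlier results of these data known. The named genes are those with the 12 largest folds, the 12 highest GFP-FHY1 values, the genes of unknown role, list members, named regulators and kinases, and the 3 genes nearest each limit. Families other than the lists, and the remaining genes, were chosen after their values were seen. The keyword classes were corrected once the files had been read. Names, products and promoters came from RefSeq TAIR10.1. Of the 80 genes 79 had an entry there and all 79 overlapped their place in the table, though gene ends differ between the annotations. The promoter of 1 gene is not reported here. For 11 genes the table gives a locus shared with another gene. Alternatives changed the fold, the fhy1-1 limit, the pseudocount, the scaling, the q threshold, shared loci and the promoter window. The functions were tested on simulated data. Python 3.11.15, pandas 2.3.3, numpy 2.4.6, scipy 1.17.1 and matplotlib 3.10.9 were used.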

Additional observations from a re-analysis of the deposited data

How the results depend on the processing

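The number of genes follows the limits chosen: a fold of at least 2 gave 246 genes (median log2 fold change 1.36), a fold of at least 4 gave 37 (2.39), a pseudocount of 1 FPKM gave 50 and a lower limit of 2 FPKM gave 52. Centring on the median of tested genes (-0.05 on the log2 scale) gave 90 genes, rescaling without the ribosomal RNA locus AT2G01021 gave 87, a q below 0.05 or 0.01 gave 74, and leaving out shared loci gave 69. All 80 genes stayed higher after centring, an outcome that the fold rule and so small a shift fixed in advance. AT2G01021 held 28.6% of all FPKM in the mutant and 38.0% with GFP-FHY1. Bonferroni adjustment of the authors' p-values left 72 of the 74 calls. With the 250 bases before the start alone, the share of set promoters with ACGTG was 31.6% in place of 44.3%, beside 23.3% of the other genes of the range, and that with a G-box 10.13%, beside 7.14%. No paired analysis was possible because each genotype has 1 combined value per gene, and for the same reason no library could be left out.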

Other observations

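Outside the range of fhy1-1 values, the authors' deposited table held 47 tested nuclear genes at 10 FPKM or more that were at least 3-fold higher, and 287 under 1 FPKM and above 0. FHY1 itself, the gene of the transgene, is among the 47, and its own promoter is counted in the shares below. In the group at 10 FPKM or more, 23.4% of promoters had a G-box, 34.0% an I-box and 53.2% an ACGTG core from 250 bases before to 50 after the start. These shares are beside 15.2%, 19.0% and 44.3% for the 79 set genes with a RefSeq start, and no test of the differences was made. CP12-2, which binds Calvin cycle enzymes, was at 12.3 and 71.0 FPKM, and AT3G56290, a potassium transporter by annotation, was at 12.04 and 77.8 FPKM.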
